A study of Mus musculus with 6 samples.

Results

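This account concerns 32 marker genes of macrophages and lymphocytes in RNA of isolated pancreatic islets, the endocrine clusters of the pancreas, which also hold vessels, stroma and resident immune cells. The genes were given by name, and among the probe sets annotated with exactly 1 gene symbol the brightest on average, by log2 signal over the 6 arrays, stood for each gene. All 32 had such a probe set, out of 18193 genes with one, and 19 of them were bright enough to be tested, out of 11703 genes tested. The 3 VhlhKO arrays carried islets of mice in which the floxed Vhlh gene was deleted in beta cells by the RIP2-Cre transgene, a Cre recombinase driven by an insulin promoter, at 26, 20 and 18 weeks of age for arrays 01, 02 and 03. The 3 control arrays carried islets of mice labelled only as controls, at the same 3 ages, and the sources used here do not say whether they carried Cre or the floxed alleles. Each array held RNA of 1 batch of islets, from how many mice is not stated in the sources used here, and p-values reflect how far batches of one genotype lay apart.

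Macrophages reside in islets throughout life, where they take up secreted material and dying cells and present antigen, while T and B lymphocytes are sparse in islets without autoimmune disease. Ptprc, the leukocyte phosphatase CD45, is made by nearly all white blood cells. Csf1r, the receptor for the growth factors Csf1 and Il34, maintains macrophages, and the transcription factor PU.1, encoded by Spi1, is known to switch on many of the myeloid genes. In whole islets fewer cells of a type and less RNA per cell cannot be told apart.

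Arrays were compared as the authors scaled them, and their median signals over 45037 probe sets lay between 101.9 and 122.7 units in VhlhKO samples and between 107.5 and 111.0 units in controls. Vhl, the targeted gene, had signals of 344, 358 and 467 in VhlhKO islets and 457, 639 and 839 in control islets on its brighter probe set. All 9 of a list of genes induced by hypoxia-inducible factor had every VhlhKO signal above every control signal, against 4.02% of all tested genes. The list was chosen with earlier results of these data known. Only 1 of the 9, Ak4, passed the test of genotypes that is applied to the markers below. The others, with log2 differences from 1.50 (Pgk1) to 4.41 (Adm), did not pass. Ak4 and Egln3 were bright enough to test through the 3 VhlhKO arrays alone. The arrays numbered 03 did not match their recorded sex. Xist, the transcript that silences 1 X chromosome in females, had signals of 187, 13800 and 13700 on VhlhKO arrays 01, 02 and 03 and of 163, 11300 and 16400 on control arrays 01, 02 and 03. Eif2s3y, a Y-linked gene, had signals of 1800, 12.3 and 21.5 on the VhlhKO arrays and of 1650, 9.92 and 2.77 on the control arrays. Arrays 01 and 03 were recorded as male and array 02 as female, so 2 of the 6 arrays, number 03 of each genotype, read as female against a male label. Log2 differences of the tested markers are given below both with all 6 arrays and without both arrays numbered 03, a choice made after seeing the data.

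The promoters of 4 markers are printed because they hold the letters that PU.1 is known to bind. Cathepsin S, CD53 and the C chain of C1q were the 3 with the long form of the motif, and C1qb is shown because C1qc and C1qb lie beside each other on chromosome 4. The windows run from 250 bases before to 50 bases after the start site, 5′ to 3′ on the gene's strand, from RefSeq on build GRCm38.p6, and capitals mark GAGGAA on either strand.
Ctss, chr3:95526536-95526835, + strand: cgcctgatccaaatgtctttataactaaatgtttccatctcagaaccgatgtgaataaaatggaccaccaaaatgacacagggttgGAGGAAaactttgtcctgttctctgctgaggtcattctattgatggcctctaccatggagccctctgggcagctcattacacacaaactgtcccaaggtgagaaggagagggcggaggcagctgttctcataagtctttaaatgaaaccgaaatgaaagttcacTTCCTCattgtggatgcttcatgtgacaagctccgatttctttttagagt
Cd53, chr3:106790100-106790399, - strand: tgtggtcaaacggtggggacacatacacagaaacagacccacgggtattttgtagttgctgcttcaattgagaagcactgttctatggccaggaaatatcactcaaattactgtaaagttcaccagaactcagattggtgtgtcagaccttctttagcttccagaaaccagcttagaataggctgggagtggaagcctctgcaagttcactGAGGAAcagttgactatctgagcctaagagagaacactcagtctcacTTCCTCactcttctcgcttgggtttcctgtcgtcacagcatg
C1qc, chr4:136892865-136893164, - strand: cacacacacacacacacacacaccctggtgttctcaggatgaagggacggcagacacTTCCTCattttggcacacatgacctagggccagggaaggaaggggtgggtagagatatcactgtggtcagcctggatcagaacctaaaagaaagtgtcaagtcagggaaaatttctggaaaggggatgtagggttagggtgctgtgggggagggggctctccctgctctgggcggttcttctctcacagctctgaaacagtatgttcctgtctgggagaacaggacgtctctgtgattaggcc
C1qb, chr4:136886151-136886450, - strand: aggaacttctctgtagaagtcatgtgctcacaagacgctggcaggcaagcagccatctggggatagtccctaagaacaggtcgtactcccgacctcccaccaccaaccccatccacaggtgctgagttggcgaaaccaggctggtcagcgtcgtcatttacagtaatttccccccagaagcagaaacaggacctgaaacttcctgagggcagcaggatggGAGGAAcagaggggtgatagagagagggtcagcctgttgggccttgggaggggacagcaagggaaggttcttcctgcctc
The promoter sequences used here covered 21 of the 32 markers, with 24 promoters. GAGGAA, searched on both strands, was in 12 of the 24 promoters and in 28.3% of all 32851 promoters of that length. Among the 12 were promoters of the T cell genes Cd3e and Cd8a and the B cell gene Cd79a, so the letters were not confined to macrophage genes. The longer GAGGAAGT, each match of which is also a GAGGAA match, was in 3 of the 24 (12.5%), against 3.2% of all promoters. The core letters of the hypoxia response element, ACGTG or GCGTG on either strand, were in 10 of the 24 (41.7%), against 43.8% of all. These matches describe the letters and do not show binding.

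Some macrophage genes gave signals above the array median on every array in both genotypes, and none of the 4 T cell markers did. A marker was called above the median where its signal exceeded the median of all 45037 probe sets on that array. By this measure 10 of the 32 markers were above the median on all 6 arrays, 9 on 3 to 5 arrays, 7 on 1 or 2 arrays and 6 on 0 arrays. Of all 18193 genes 53.7% were above the median on all 6 arrays and 26.2% on 0 arrays, against 31.2% and 18.8% of the markers. On the 4 arrays numbered 01 and 02, 10 markers were above the median on every array and 8 on 0 arrays. The 10 above it on all 6 were Ptprc, Laptm5, Lcp1, Csf1r, Adgre1, Cd14, C1qa, C1qb, Lyz2 and Ctss. They are 3 pan-leukocyte and 7 macrophage genes, out of 6 pan-leukocyte and 17 macrophage and myeloid genes, against 0 of the 9 lymphocyte genes. That 0 depends on the probe set that stands for the B cell gene Ighm, which was above the median on 5 arrays. Another Ighm probe set was above it on all 6, and counting any probe set of a gene gave 11 markers. The 6 on 0 arrays were the integrin Itgam, the T cell genes Cd3e, Cd3g and Cd4, the B cell gene Cd79b and the homing receptor Ccr7. A signal under the median does not show that a transcript is absent, since probe sets differ in how brightly they report the same amount of RNA. With the median taken over 1 probe set per gene, a higher bar, 8 markers stayed above it on all 6 arrays and 18 were above it on 0 arrays.

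**Figure D1:**
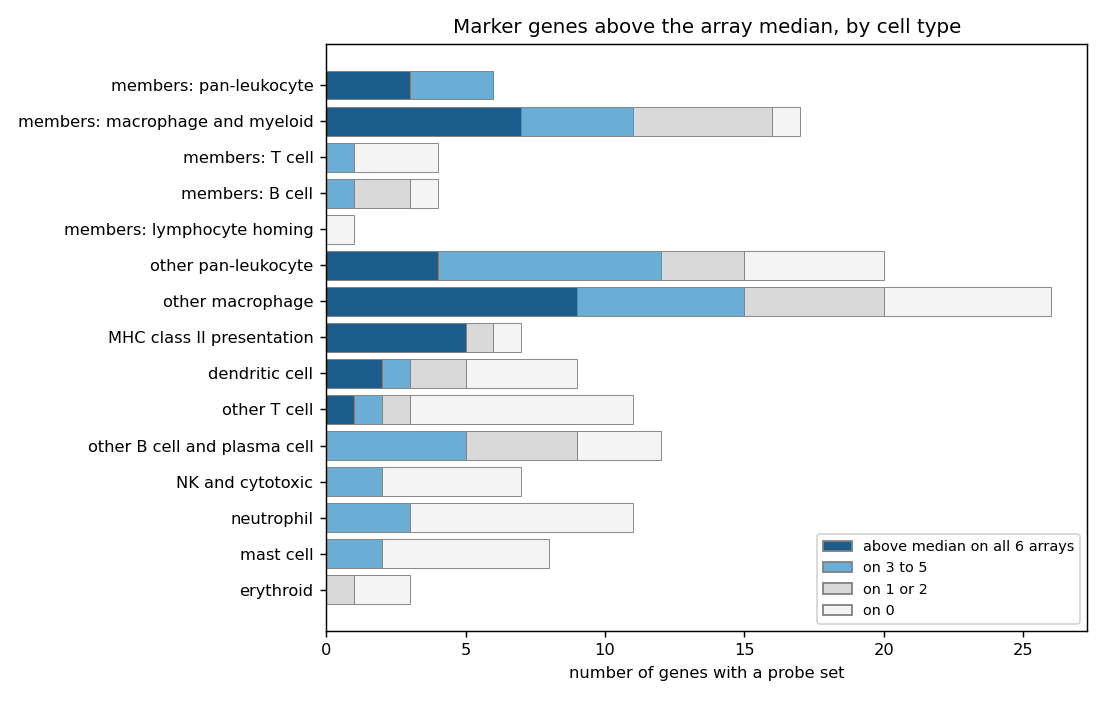
Horizontal bars count the marker genes of each cell type that have a probe set, split by the number of arrays (of 6) on which the signal exceeded the array median. Of the macrophage and myeloid markers 7 of 17 were above the median on all 6 arrays, while 3 of the 4 T cell markers among the 32 and 8 of the 11 other T cell genes were above the median on 0 arrays.

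No tested marker differed between genotypes beyond the spread of the arrays. Of the 19 tested markers 0 passed limma's adjusted p of 0.05 over all genes, where 0.0171% of all tested genes did, and each had an adjusted p of 0.9999. At an unadjusted p under 0.05 there were also 0 of 19, against 2.56% of all tested genes. VhlhKO and control signals did not overlap for 0 of the 19, against 4.02% of all tested genes with higher and 2.69% with lower VhlhKO signals. With the array number as a block, 0 of 19 passed (lowest adjusted p 0.897), and 2 of 19, Lgals3 and Ighm, had an unadjusted p under 0.05, both with higher VhlhKO signals, against 4.99% of all tested genes in either direction and 3.68% with higher VhlhKO signals.

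The log2 differences were mostly of one sign. VhlhKO minus control was positive for 17 of the 19 tested markers, against 50.8% of all tested genes, with a median of 0.43 against 0.005. The difference was positive in all 3 same-numbered pairs for 7 of the 19, against 13.8% of all tested genes, and negative in all 3 for 0, against 10.9%. That share depended on which markers and arrays were counted. Over all 32 markers, dim ones included, 22 had a positive difference, so 5 of the 13 markers too dim to test did. Cd52, Cd53, Coro1a and Lgals3, all positive, entered the test with 3 VhlhKO arrays but 1 control array above the median. The filter thus favoured positive differences for them. Without probe sets of the suffix _x_at, whose probes may also match other genes, 14 of 18 were positive, with a median of 0.38. Without both arrays numbered 03 the difference was positive for 15 of 19, with a median of 0.32. Without VhlhKO array 03 alone it was positive for 13, with a median of 0.18. Markers of one cell type come from the same cells, so they are not independent observations. Genes of some other cell types had one-sided signs too, while those of beta and duct cells were mixed. Positive differences were found for 13 of 13 tested fibroblast and pericyte genes (median 1.20), 11 of 11 endothelial genes (0.44), 6 of 6 Schwann and neural genes (0.92) and 8 of 8 genes of alpha, delta and PP cells (0.27), and for 0 of 12 acinar genes (-1.08). None of these passed. The counts without both arrays numbered 03 were 13 of 13, 8 of 11, 5 of 6, 8 of 8 and 12 of 12, so the acinar sign turned. Of 8 tested beta cell genes 3 had a positive and 5 a negative difference (median -0.13). Of 5 tested duct genes 3 were positive and 2 negative (median 0.37). None of them passed. Without both arrays numbered 03 the beta cell counts were again 3 and 5, and 4 of 5 duct genes were positive.

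**Figure D2:**
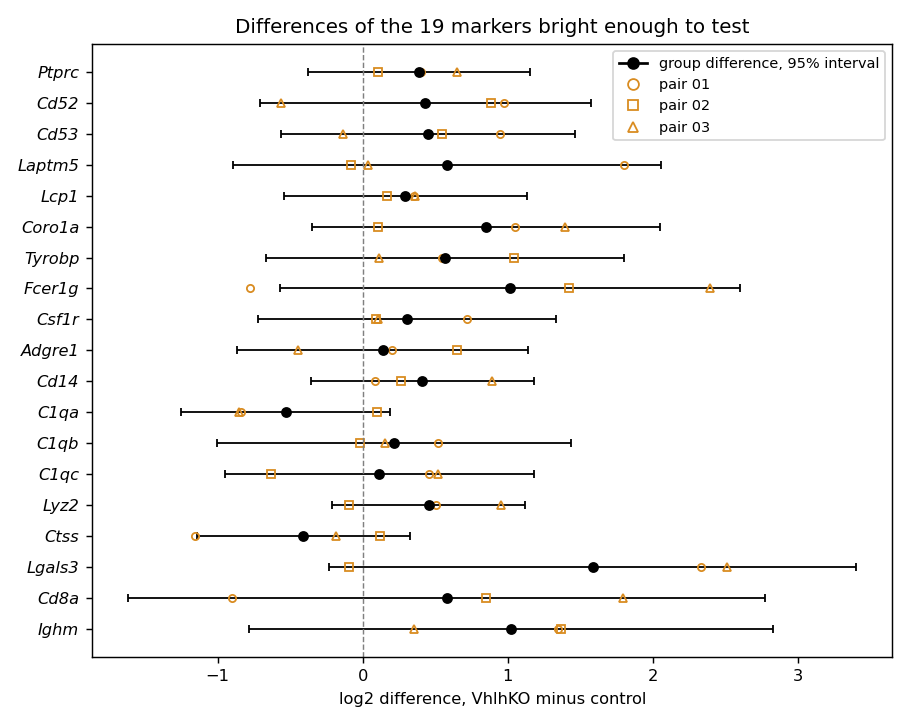
Black points give the log2 difference of each tested marker, VhlhKO minus control, with limma's 95% interval over 3 arrays per genotype, and open symbols give the difference within each same-numbered pair. Every interval includes 0, and 17 of the 19 points lie above 0.

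The pan-leukocyte genes were all 6 tested, all 6 log2 differences were positive, from 0.29 to 0.85, and 0 passed the threshold. Ptprc had signals of 413, 335 and 666 in VhlhKO islets and 313, 312 and 424 in control islets. VhlhKO arrays 01 and 02 lay below control array 03, and the log2 difference was 0.39 (standard error, SE, 0.34, 95% interval -0.38 to 1.15). Without VhlhKO array 03 it was 0.11, and without both arrays numbered 03 it was 0.25. Lcp1, the leukocyte actin-bundling protein L-plastin, had 176, 228 and 274 in VhlhKO islets and 138, 203 and 214 in control islets, a difference of 0.29 (SE 0.37), or 0.26 without both arrays numbered 03. Both genes were higher in the VhlhKO array of every pair, and so was Coro1a. Coro1a, an actin-binding coronin of leukocytes, had signals of 205, 150 and 130 in VhlhKO islets and 99.3, 139 and 49.5 in control islets, a log2 difference of 0.85 (SE 0.53), or 0.58 without both arrays numbered 03. Only the VhlhKO array 03 fell below a control array, and 2 of the 3 control signals lay under the array median. 

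Cd52 and Cd53, a short surface glycopeptide and a tetraspanin of leukocytes, shared a pattern in which control array 03 stood apart from the other 2 controls. Cd52 had 183, 148 and 159 in VhlhKO islets and 93.1, 80.5 and 235 in control islets, a difference of 0.43 (SE 0.51). Cd53 had 167, 147 and 162 in VhlhKO islets and 86.6, 100 and 178 in control islets, a difference of 0.45 (SE 0.45). In both genes all 3 VhlhKO signals were above the array median and 1 of 3 control signals was, and control array 03 was the highest of the 6. Without both arrays numbered 03 the differences were 0.93 for Cd52 and 0.75 for Cd53. Leaving out 1 array at a time they ranged from 0.14 (without control array 02) to 0.91 (without control array 03) for Cd52 and from 0.24 (without control array 01) to 0.76 (without control array 03) for Cd53, and neither passed. Laptm5, a lysosomal membrane protein of blood cells, had signals of 1920, 627 and 2530 in VhlhKO islets and 553, 664 and 2470 in control islets, a difference of 0.58 (SE 0.65). Its spread lay within the genotypes, and a single pair, number 01, gave nearly the whole difference (1.80, against -0.083 and 0.033 in pairs 02 and 03). Without both arrays numbered 03 it was 0.86, and leaving out 1 array at a time it ranged from 0.18 (without control array 01) to 1.26 (without control array 03).

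Of the adaptors through which myeloid receptors signal, Tyrobp was above the array median on 5 arrays and Fcer1g on 3. Tyrobp, also called DAP12, had signals of 185, 218 and 409 in VhlhKO islets and 127, 106 and 379 in control islets, a log2 difference of 0.57 (SE 0.55). It was higher in the VhlhKO array of each pair, by 0.55, 1.04 and 0.11. The difference was 0.80 without both arrays numbered 03, 0.22 without control array 02, 0.23 without VhlhKO array 03 and 1.14 without control array 03. Fcer1g, the common chain of Fc receptors, had 68.3, 123 and 167 in VhlhKO islets and 117, 45.9 and 31.7 in control islets, a difference of 1.01 (SE 0.70). Its pairs disagreed in sign, at -0.78, 1.42 and 2.39. The difference was 0.32 without both arrays numbered 03, and from 0.61 (without control array 03) to 1.55 (without control array 01) with 1 array left out.

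Among the 8 macrophage surface receptors Csf1r, Adgre1 and Cd14 were bright enough to test. Csf1r had signals of 2450, 1510 and 3880 in VhlhKO islets and 1490, 1420 and 3610 in control islets. Array 03 was by far the brightest in both genotypes, and the log2 difference was 0.30 (SE 0.45, 95% interval -0.72 to 1.33), which became -0.034 without VhlhKO array 03 and 0.40 without both arrays numbered 03. Adgre1, the surface protein F4/80 by which mouse macrophages are recognised, had 305, 372 and 510 in VhlhKO islets and 265, 237 and 694 in control islets. Its highest signal was a control, and its difference of 0.14 (SE 0.44) became -0.063 without VhlhKO array 03, -0.068 without control array 01, -0.15 without control array 02 and 0.43 without both arrays numbered 03. Cd14, a co-receptor for bacterial lipopolysaccharide, had 271, 419 and 372 in VhlhKO islets and 256, 350 and 201 in control islets, a difference of 0.41 (SE 0.34) that was positive in all 3 pairs and 0.17 without both arrays numbered 03.

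The other 5 receptors were too dim to test and their values are given without a test. Itgam, the integrin CD11b of myeloid cells, lay between 2.86 and 50.5 in VhlhKO islets and between 5.25 and 48.2 in control islets. Itgax, the integrin CD11c of dendritic cells and some macrophages, lay between 18.1 and 129 in VhlhKO islets and between 48.0 and 83.3 in control islets. Itgam was above the array median on 0 arrays and Itgax on 1. Mrc1, the mannose receptor, lay between 59.9 and 136 in VhlhKO islets and between 48.6 and 89.1 in control islets. Cd163, a scavenger receptor for haemoglobin, lay between 22.4 and 115 in VhlhKO islets and between 3.30 and 151 in control islets. Cx3cr1, the fractalkine receptor, had 33.4, 109 and 47.9 in VhlhKO islets and 78.9, 118 and 88.5 in control islets, and the VhlhKO signal was the lower one in all 3 pairs. These 5 sets of values scatter around or below the median in both genotypes, so no order of the genotypes can be read from them.

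The 3 chains of C1q, the first component of the classical complement pathway and a product of tissue macrophages, had log2 differences of both signs. C1qa had signals of 507, 538 and 538 in VhlhKO islets and 907, 502 and 973 in control islets, a log2 difference of -0.53 (SE 0.32, 95% interval -1.25 to 0.19), or -0.37 without both arrays numbered 03. The VhlhKO signals were nearly equal, and control array 02 lay just below them while the other 2 controls were well above. C1qb had 421, 327 and 1020 in VhlhKO islets and 294, 331 and 920 in control islets, a difference of 0.22 (SE 0.54) that became -0.27 without VhlhKO array 03, -0.086 without control array 01 and 0.25 without both arrays numbered 03. Array 03 was the brightest of both genotypes for C1qb. C1qc was near the median, with 139, 91.3 and 127 in VhlhKO islets and 102, 142 and 89.2 in control islets and a difference of 0.11 (SE 0.47). Its sign turned without VhlhKO array 01 (-0.011), without control array 03 (-0.030) and without both arrays numbered 03 (-0.089).

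Of the lysosomal and lectin genes Ctss and Lyz2 were bright on every array. Ctss, the protease cathepsin S that prepares class II molecules for antigen, had signals of 1460, 3170 and 2640 in VhlhKO islets and 3260, 2920 and 3010 in control islets. The control signals were close together, and the log2 difference of -0.41 (SE 0.32) was -0.080 without VhlhKO array 01 and -0.52 without both arrays numbered 03. Lyz2, lysozyme of macrophages and neutrophils, had 509, 447 and 639 in VhlhKO islets and 359, 477 and 331 in control islets, a difference of 0.45 (SE 0.29, 95% interval -0.21 to 1.12). The groups overlapped through VhlhKO array 02 and control array 02 alone, and without both arrays numbered 03 the difference was 0.20. Lgals3, galectin-3, is made by macrophages and also by epithelial cells. It had 116, 183 and 397 in VhlhKO islets and 23.0, 195 and 69.9 in control islets, and its difference of 1.58 (SE 0.80, 95% interval -0.23 to 3.40, unadjusted p 0.080 in limma over 3 arrays each) was the furthest from 0 of the 19. Pairs 01 and 03 differed by 2.33 and 2.51 and pair 02 by -0.092, and the difference without both arrays numbered 03 was 1.12. It was 0.80 without control array 01 and 2.34 without control array 02. With the array number as a block the unadjusted p was 0.039 and the adjusted p 0.968. The duct keratin Krt19 had 223, 418 and 283 in VhlhKO islets and 137, 193 and 13.0 in control islets (difference 2.09, unadjusted limma p 0.047, which did not pass, or 0.91 without both arrays numbered 03). It was 1 of 5 duct genes tested, of which Sox9 (1.35) and Epcam (0.37) were positive too and Krt7 (-0.22) and Muc1 (-0.14) negative. Sox9 was above the array median on the 3 VhlhKO arrays alone, so the filter favoured a positive difference for it. The summed signal of 6 duct genes, 2 of them above the median on all 6 arrays, was 17113, 15454 and 9653 in VhlhKO islets and 14234, 16559 and 6835 in control islets. Those 2, Epcam and Krt7, carried most of the sum. Epcam alone had 11400, 9470 and 7110 in VhlhKO islets and 8810, 9920 and 4070 in control islets. The part of duct cells in the Lgals3 values was not tested. Cd68, a lysosomal protein of macrophages, was above its array's median on 1 array, with 33.8, 93.6 and 124 in VhlhKO islets and 62.5, 51.6 and 79.9 in control islets.

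**Figure D3:**
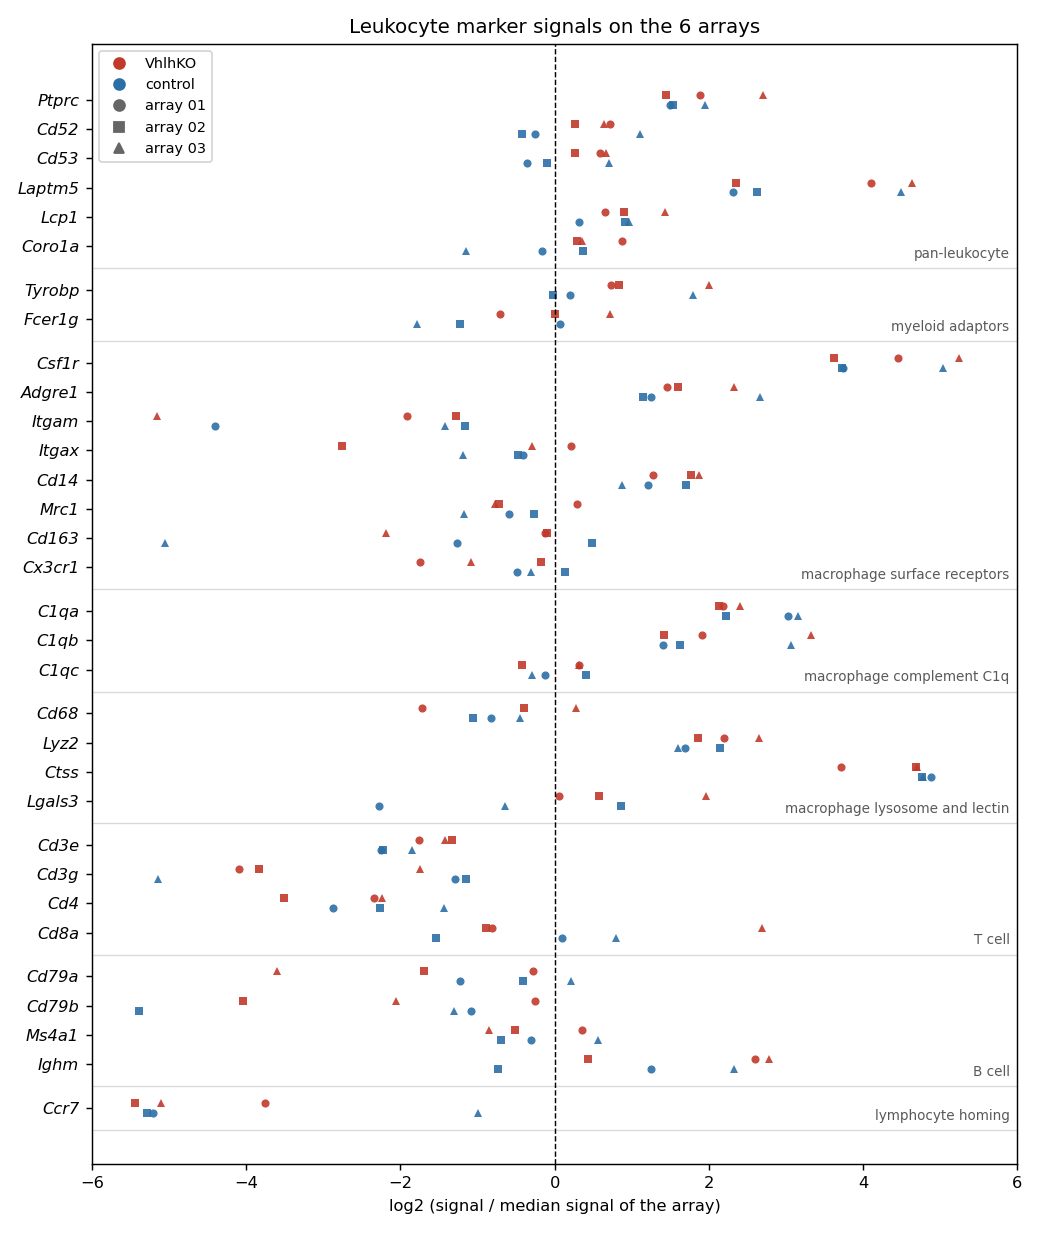
Each symbol is the signal of a marker on 1 array as log2 of its ratio to the array's median, which the dashed line marks, with VhlhKO above control in each row and the symbol shape giving the array number. The brightest macrophage genes, such as Csf1r and Ctss, lie far right of the line, several macrophage receptors and most T cell genes left of it, and the genotypes overlap for every tested marker.

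Of the 4 T cell markers 3 were under the median on every array. Cd3e and Cd3g encode chains of the T cell receptor complex, and Cd4 and Cd8a are the co-receptors of helper and cytotoxic T cells. Cd3e had signals of 33.1, 48.9 and 38.2 in VhlhKO islets and 23.3, 22.9 and 30.3 in control islets. The VhlhKO signals were all above the control signals, but all 6 were at or below the percentile 28.6 of their array, and the gene was not tested. Cd3g lay between 6.54 and 30.4 in VhlhKO islets and between 3.10 and 48.4 in control islets. Cd4 lay between 10.8 and 21.9 in VhlhKO islets and between 15.1 and 40.7 in control islets. Cd8a passed the filter through 1 of its 5 probe sets, with signals of 63.6, 66.5 and 660 in VhlhKO islets and 119, 37.0 and 191 in control islets. VhlhKO array 03 stood alone there, the log2 difference was 0.58 (SE 0.97), and it was -0.54 without that array, -0.096 without control array 02 and -0.027 without both arrays numbered 03. On that array the other 4 Cd8a probe sets had signals of 32.4 to 54.9, below its median of 101.9.

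Of the 4 B cell markers Cd79b was above the array median on 0 arrays, Cd79a on 1, Ms4a1 on 2 and Ighm on 5. Cd79a and Cd79b encode the signalling chains of the B cell receptor, and Ms4a1 encodes CD20. Cd79a lay between 8.40 and 92.2 in VhlhKO islets and between 47.3 and 127 in control islets. Cd79b lay between 7.47 and 93.3 in VhlhKO islets and between 2.57 and 52.2 in control islets. Ms4a1 had 143, 85.9 and 56.4 in VhlhKO islets and 89.9, 66.3 and 162 in control islets, and 1 array of each genotype was above its median. Ighm, the heavy chain of IgM, had 675, 166 and 701 in VhlhKO islets and 265, 64.6 and 549 in control islets. It was higher in the VhlhKO array of every pair, by 1.35, 1.36 and 0.35, with a log2 difference of 1.02 (SE 0.80) and, with the array number as a block, an unadjusted p of 0.014 and an adjusted p of 0.897. The difference was 1.36 without both arrays numbered 03, 0.17 without control array 02 and 1.71 without control array 03. Ighm is part of a family of similar genes, and its probe sets can bind related transcripts. Ccr7, which guides lymphocytes and mature dendritic cells to lymph nodes, had signals of 8.22, 2.82 and 2.95 in VhlhKO islets and 3.00, 2.76 and 54.9 in control islets, all under the array medians.

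Different probe sets of one marker did not always give the same sign. Among the markers for which several probe sets reached the brightness filter, Coro1a, Csf1r and C1qb had probe sets that all gave positive differences. The 3 of Csf1r gave 0.30, 0.69 and 0.14, and the 3 of C1qb gave 0.22, 0.73 and 0.37. The high Csf1r signals came from the first of its probe sets alone. Its others had signals of 226 to 508 and of 172 to 428 on the 6 arrays. Laptm5 and Ighm had probe sets of both signs. A second bright Laptm5 probe set had signals of 358, 1890 and 1510 in VhlhKO islets and 620, 1160 and 2320 in control islets, a difference of -0.24, where the one above gave 0.58. For Ighm the 2 others bright enough gave -0.84 and -2.83, the first with 222, 290 and 123 in VhlhKO islets and 289, 593 and 264 in control islets. The probe sets that stand for Laptm5, C1qb, Cd8a and Ighm carry the suffix _x_at, given to probe sets whose probes may also match other genes. With such probe sets left out, Laptm5 and Ighm turned negative and Cd8a was too dim to test.

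**Figure D4:**
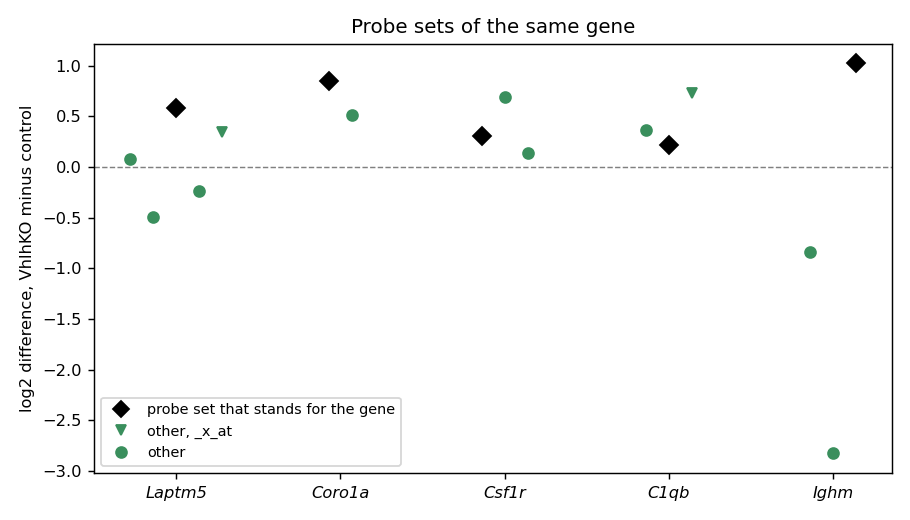
Points give the log2 difference, VhlhKO minus control, of every probe set above the array median on at least 3 arrays, for the 5 markers with more than 1 of them. The probe sets of Coro1a, Csf1r and C1qb lie above 0, while those of Laptm5 and Ighm lie on both sides of it.

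Signals of several macrophage genes followed the array number in both genotypes. Array 03 was the brightest of its genotype in both genotypes for 10 of the 19 tested markers (52.6%), against 19.7% of all tested genes. This pattern was chosen after its values were seen, and it is a description with no test. The signal of array 03 over the geometric mean of arrays 01 and 02 was 2.02 in VhlhKO islets and 2.48 in control islets for Csf1r, and 2.75 in VhlhKO islets and 2.95 in control islets for C1qb. It was 2.03 in VhlhKO islets and 3.27 in control islets for Tyrobp, and 1.51 in VhlhKO islets and 2.77 in control islets for Adgre1. Other macrophage genes did not share it, since the ratio was 1.34 in VhlhKO islets and 0.799 in control islets for Lyz2, and 1.23 in VhlhKO islets and 0.974 in control islets for Ctss. The 10 include Laptm5, C1qb, Cd8a and Ighm, which _x_at probe sets stand for, and C1qa, with a ratio of 1.03 in VhlhKO islets. A C1qb probe set without that suffix was nearly level, with 197, 190 and 201 in VhlhKO islets and 132, 160 and 165 in control islets. The second bright Laptm5 probe set did not peak on VhlhKO array 03. The other Csf1r probe sets did have array 03 as the brightest in both genotypes, but by less in VhlhKO islets. The first of them had 386, 467 and 508 in VhlhKO islets and 226, 234 and 410 in control islets. The last had 279, 238 and 354 in VhlhKO islets and 240, 172 and 428 in control islets. Arrays 03 were those of the youngest mice, at 18 weeks, and those whose Xist and Y-linked signals went against the recorded sex.

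**Figure D5:**
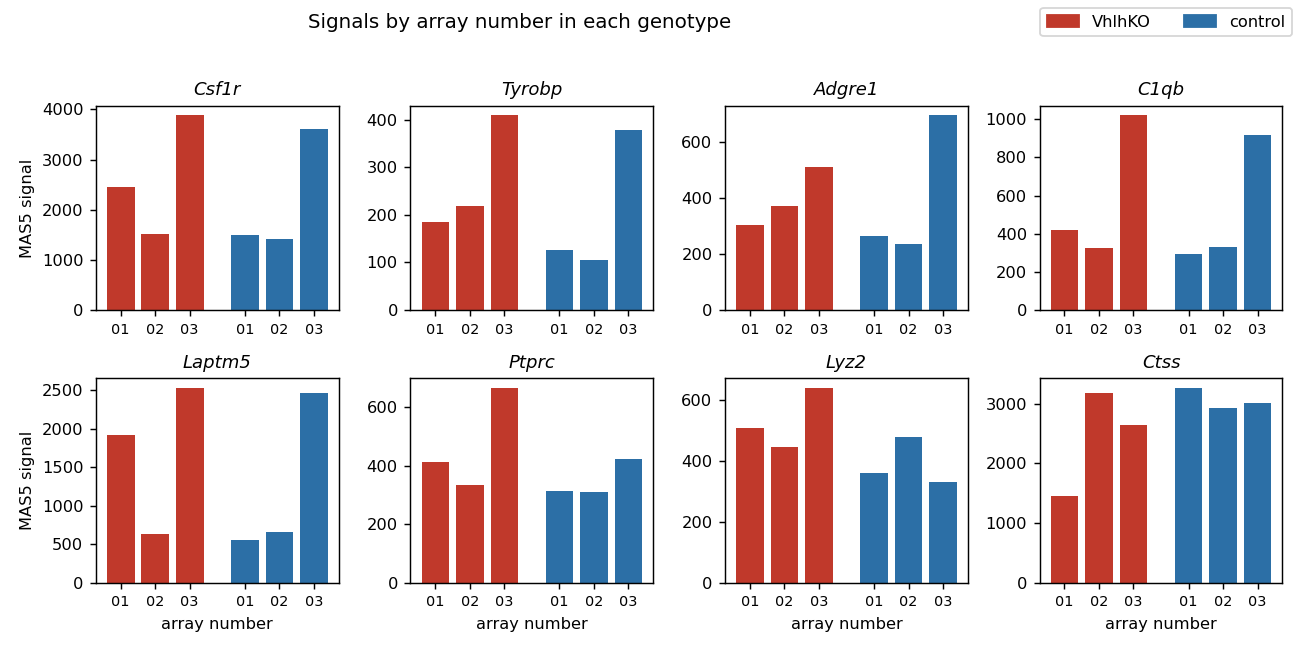
Bars give the MAS5 signal of 8 markers on arrays 01, 02 and 03 of each genotype, each panel on its own linear axis from 0. For Csf1r, Tyrobp, Adgre1, C1qb and Laptm5 array 03 is the tallest bar of both genotypes, while Ctss is nearly level in controls and lowest on VhlhKO array 01.

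Markers of other cells also differed between the arrays. The summed signal of 12 acinar genes, markers of the enzyme-secreting exocrine pancreas, was 532553, 673391 and 13592 on VhlhKO arrays 01, 02 and 03 and 479415, 531545 and 153150 on control arrays 01, 02 and 03. All 12 were above the median on all 6 arrays. That of 14 fibroblast and pericyte genes was 8396, 13021 and 27274 on the VhlhKO arrays and 5771, 9463 and 6456 on the control arrays, 11 of them above the median on all 6. Arrays 03 thus had the lowest acinar sum in both genotypes and VhlhKO array 03 had the highest stromal sum. That of 12 endothelial genes lay between 12070 and 16548 in VhlhKO islets and between 9696 and 10359 in control islets, with Tie1 above the median on 0 arrays. The part of these other cells in the marker values was not tested.

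Other genes of the same cells, from lists chosen with earlier results of these data known, were mostly positive too. Of 26 further macrophage genes with a probe set 15 were tested, 13 had a positive and 2 a negative log2 difference, 0 passed, and the median was 0.23 against 0.005 over all genes. The tested ones of lowest p were Apoe, the lipid carrier of macrophages and other cells (0.75, SE 0.39), Lst1, a leukocyte membrane protein (0.77, SE 0.41), and Mertk, a receptor for dying cells (0.73, SE 0.53). Apoe had signals of 1900, 3610 and 3370 in VhlhKO islets and 1920, 2410 and 1050 in control islets, so VhlhKO array 01 lay among the controls. Without both arrays numbered 03 the difference was 0.29 for Apoe, 0.85 for Lst1 and 0.45 for Mertk, and the list had 13 positive and 2 negative differences. Spi1, named here for its link to the promoter letters and after its values were seen, had 89.4, 30.8 and 76.1 in VhlhKO islets and 89.5, 41.0 and 126 in control islets, above the median on 1 array. Of 20 further pan-leukocyte genes 12 were tested, with 8 positive and 4 negative differences, 0 passed and a median of 0.31. Itgb2, the integrin chain that pairs with Itgam and Itgax, had 149, 188 and 185 in VhlhKO islets and 118, 92.7 and 75.3 in control islets, a difference of 0.89 (SE 0.43) without overlap that did not pass, or 0.68 without both arrays numbered 03. Control arrays 02 and 03 for Itgb2, and control arrays 01 and 03 for Mertk, lay under the array medians. All VhlhKO arrays lay above them for both genes, so the filter favoured positive differences there.

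Class II antigen presentation genes were among the bright ones, with 5 of 7 above the median on all 6 arrays. Those 5 were tested, with 4 positive and 1 negative difference, 0 passing and a median of 0.15. H2-Aa, a chain of the class II molecule, had signals of 3960, 2990 and 6470 in VhlhKO islets and 2020, 2080 and 7800 in control islets, with array 03 again the brightest of both genotypes. Its log2 difference was 0.41. H2-Ab1, the partner chain, had 1360, 2070 and 959 in VhlhKO islets and 1100, 873 and 840 in control islets, a difference of 0.58. In H2-Ab1 array 03 was instead the dimmest of both genotypes. The differences without both arrays numbered 03 were 0.75 for H2-Aa and 0.77 for H2-Ab1, and all 5 were positive. 

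Genes of other leukocytes were mostly under the median. Of 11 further T cell genes 2 were tested, Il7r, the interleukin-7 receptor (difference 0.73), and Zap70, the kinase of T cell receptor signalling (-0.20, or 0.13 without both arrays numbered 03). Il7r was above the array median on the 3 VhlhKO arrays alone, so the filter favoured a positive difference for it. Zap70 alone was above the median on all 6 arrays, with signals of 1430, 1680 and 987 in VhlhKO islets and 1680, 1190 and 1780 in control islets, while Cd3d, a chain of the same receptor, was at 9.74 or less on every array. Of 12 further B and plasma cell genes 5 were tested, 3 with a positive and 2 with a negative difference. Among 11 neutrophil genes 3 were tested, 1 with a positive and 2 with a negative difference, and S100a8 and S100a9, abundant in neutrophils, were above the median on 0 arrays. Of 7 natural killer and cytotoxic genes 2 were tested, as were 2 of 8 mast cell genes, 3 of 9 dendritic cell genes and 0 of 3 erythroid genes. None of these tested genes passed in limma.

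The ligands of the marker receptors did not pass either. Csf1, a ligand of Csf1r, had signals of 290, 384 and 372 in VhlhKO islets and 381, 255 and 545 in control islets, a log2 difference of -0.12, or 0.097 without both arrays numbered 03. Cx3cl1, the ligand of Cx3cr1, had 386, 203 and 270 in VhlhKO islets and 138, 313 and 197 in control islets, a difference of 0.44. Il34, the other ligand of Csf1r, was above the median on 0 arrays. Cxcl13, which attracts B cells into lymph node follicles, was the only 1 of 5 lymph node stroma genes with a probe set that was bright enough to test. Cxcl13 was above the array median on the 3 control arrays alone, so the filter favoured a negative difference. The unadjusted limma p was 0.039. Its signals of 99.1, 84.9 and 67.7 in VhlhKO islets lay below those of 180, 146 and 199 in control islets, a log2 difference of -1.07 (SE 0.44), or -0.82 without both arrays numbered 03, and its adjusted p was 0.9999.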

How the data were processed

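RNA of isolated islets was measured on 6 Affymetrix mouse arrays, 3 per genotype. The authors deposited a linear signal intensity for each probe set. GCOS 1.4 and MAS5 are named in the submitters' processing notes, and the RNA was amplified by a pair of cDNA synthesis rounds per the labels' protocols. In the deposited values every array had a 2% trimmed mean of 500.003, and no further normalization was applied. Of 45101 probe sets 64 controls were left out, and 34945 of the rest had exactly 1 gene symbol. Symbols were checked through Entrez identifiers against RefSeq (GRCm38.p6), which matched 34741 and changed 0. The probe set of highest mean log2 signal stood for a gene, _x_at kinds included. Genes entered the test when 3 or more of the 6 arrays showed them over the array median. The genotypes were set against each other on log2 signals by limma 3.58.1 under R 4.3.3 (lmFit, eBayes with an intensity trend, no covariate), with Benjamini-Hochberg adjustment over the 11703 genes tested and a threshold of 0.05. Every p-value in the text comes from that tool, errors are its moderated standard errors, and no value was added before log2. Data were simulated for this comparison over 11703 genes, with all changed genes planted together and noise drawn independently for each gene and array. There 4 of 67 genes changed by 1 on the log2 scale were called, 38 of 67 changed by 2 and 59 of 66 changed by 4. Small differences were thus mostly missed even there. In the real data 2 genes passed, and Adm (log2 difference 4.41, limma adjusted p 0.090) and Egln3 (3.66, 0.067) did not. The simulated shares may therefore overstate what could be called on these arrays.

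Both genotypes carry array numbers with the same age and recorded sex. Deviations from the group means correlated at 0.137, 0.413 and 0.422 in the pairs numbered 01, 02 and 03, which met the rule that each exceed 0.1. The unmatched pair of VhlhKO array 02 and control array 01 reached 0.141, above pair 01, so the rule does not show that the numbers pair the samples. The number as a block was an alternative, as were other normalization, pseudocount, filters, probe set choices, array weights and leaving out arrays. The markers and lists were chosen with earlier results of these data known. From each further list, genes past the threshold or up to 3 of lowest p could be named, and others named were chosen after their values were seen. Of the listed genes that are no markers here, 30 lacked a one-symbol probe set and were not analysed. No detection call, scanner file or scan date was used here, and the number of arrays limits every precision.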

Additional observations from a re-analysis of the deposited data

How the results depend on the processing

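No marker passed the threshold in limma under any alternative run, the one without both arrays numbered 03 having been added after the data were seen. The replicate block left 2 genes of 11703 past the threshold and 0 markers, and it changed no call. The count of all genes past the threshold, 2 here, was 4 with log2(signal + 50), 1 with only genes above the median on all 6 arrays, 0 without both arrays numbered 03, and 0 to 4 when leaving out each array in turn. It was 0 without VhlhKO array 01, VhlhKO array 03 or control array 01. Fewer markers were tested with that stricter filter, where 8 of 10 had a positive difference, and when all probe sets of a gene were averaged, where 11 of 14 did. Without _x_at probe sets 14 of 18 did. Leaving out each array in turn gave 13 to 17 positive of 19, medians of 0.18 to 0.63, and no marker past the threshold.

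Signs turned for 8 markers. Without _x_at probe sets Ighm was at -0.84 and Laptm5 at -0.24, since another probe set then stands for each. With the mean of its probe sets Ptprc was at -0.20, as a second, dim one enters. Without both arrays numbered 03, C1qc was at -0.089 and Cd8a at -0.027. Leaving out each array in turn, differences ranged from -0.15 to 0.63 for Adgre1, from -0.27 to 0.74 for C1qb, from -0.030 to 0.30 for C1qc, from -0.54 to 1.15 for Cd8a and from -0.034 to 0.74 for Csf1r. In the same way, with no change of sign, they ranged from 0.17 to 1.71 for Ighm, 0.80 to 2.34 for Lgals3, 0.22 to 1.14 for Tyrobp and 0.61 to 1.55 for Fcer1g. The cause was not tested.

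Counts of detected markers followed the bar. With the array's 75th percentile, 4 markers were above it on every array and 22 on 0 arrays. With the median over 1 probe set per gene 18 were above it on 0 arrays, and averaging the probe sets 11 were. Counting any probe set of a gene, or leaving out _x_at probe sets, 11 markers were above the median on every array, Ighm among them. Signal over background could not be checked, so differences near the array median are the least certain.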
